A study of Rattus norvegicus with 36 samples.

Results

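The response of the rat kidney to ischemia followed by reperfusion was set against the response to sham surgery, both at 8 h. For each gene the change of 3 ischemia rats from normal rats 1 to 3 was taken, and the change of 3 sham rats from normal rats 11 and 12 was subtracted from it. This difference used 15 of the 36 arrays of the series and 11 of its 31 rats. All rats were male, 6 to 8 weeks old, and RNA came from kidney tissue. Ischemia rats had 40 min of bilateral renal ischemia and 8 h of reperfusion. Sham rats had 40 min of sham surgery and were killed after 8 h. The normal rats had no treatment. Ischemia rats 1 and 2 and normal rats 2 and 11 were each measured on 2 arrays, which were averaged so that a rat counted once. The labels name no strain.

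Ischemia followed by reperfusion is the standard model of acute tubular injury. The cells most exposed are those of the proximal tubule, which reclaim filtered solutes and live mainly on fatty acid oxidation, and those of the thick ascending limb of the loop of Henle. Injured tubular cells lose transport and metabolic functions, switch on injury molecules that are secreted or shed into urine, and mount heat shock, oxidant and unfolded protein responses. Sham surgery exposes the animal to anaesthesia and opening of the abdomen without stopping the blood flow, so the subtraction asks which changes go beyond those of the operation. In whole kidney RNA, fewer cells of a type and less RNA per cell cannot be told apart.

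Levels below are multiples of the array's median intensity, with a floor of 0.1, and changes and differences are on the log2 scale with their standard error (SE). A gene is called where the limma test gave a Benjamini-Hochberg adjusted p under 0.05 over all 9387 probes tested, and a gene with several probes stands by its brightest. Ischemia and sham rats lay in different array lots by the reading used here. The labels do not give the lot of an array, so it was read from the values. Subtracting normal rats 1 to 3 from normal rats 11 and 12 gave a profile with which the 3 sham arrays correlated at 0.514 to 0.559 and the 5 ischemia arrays at -0.101 to -0.023. In addition, 47 probes missing on all arrays of normal rats 11 and 12, and on none of normal rats 1 to 3, were missing on all sham arrays and on no ischemia array. The values of sham rat 3 stood 2 rows out of line with the probe names and were moved, which brought its correlation with the other arrays from 0.0652 to 0.9843. Ischemia rat 3 stood apart from the other ischemia rats, with a median correlation of 0.9261 with its group. Its array had 1.63% of values at the floor, against 10.54 to 12.09% on the other ischemia arrays. The 90th percentile of its log2 levels was 3.16, against 2.783 to 2.879 on those arrays and 3.131 on the array of normal rat 1. Ischemia rat 3 was measured on 1 array, so animal and array cannot be told apart for it. The number of rats limits the precision.

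Ischemia moved a large part of the kidney transcriptome beyond the change seen after sham surgery, in both directions. Of 6149 genes tested, the difference was called for 1491 (24.2%), with ischemia above sham in 810 (13.2%) and below it in 681 (11.1%). It was at least 2-fold in 421 (6.85%) and 320 (5.2%) genes. Against their own normal rats, ischemia rats had 1386 genes higher (22.5%) and 1287 lower (20.9%), while sham rats had 20 higher (0.325%) and 3 lower (0.0488%). Of the genes called in ischemia against normal rats, the difference from sham was also called for 788 (56.9%) of those that rose and 656 (51.0%) of those that fell. The median difference over all genes was 0.03. With no lot term, that is ischemia rats directly against sham rats, 2881 genes (46.9%) were called, 1591 higher (25.9%) and 1290 lower (21%). Of the 2151 probes with a called difference (22.9%), 1970 (91.6%) were also called in the same direction in that direct comparison and 10 in the opposite direction. Ischemia and sham rats did not overlap in 2748 genes (44.7%).

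**Figure D1:**
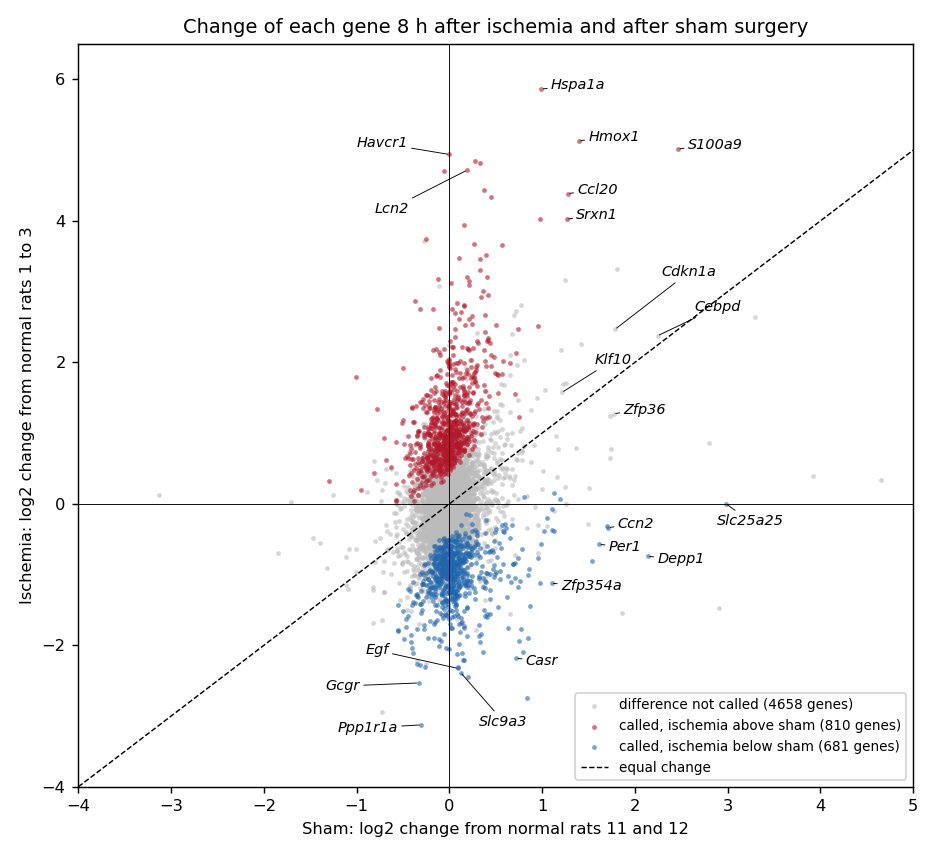
Each point is 1 of 6149 genes, with its log2 change after sham surgery (horizontal, against normal rats 11 and 12) and after ischemia (vertical, against normal rats 1 to 3). Called differences lie above the dashed line of equal change (810 genes, red) or below it (681 genes, blue), and most points stretch along the vertical axis.

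The tubular injury list had the highest median difference of the lists. Of its 19 tested genes, 14 were higher in ischemia than in sham and none lower, with a median difference of 2.28, and the median sham change was 0.12. Havcr1 encodes kidney injury molecule 1, a surface receptor of injured proximal tubule cells. Its level was 19.6, 22 and 33.6 in the ischemia rats, 0.411, 0.887 and 1.38 in normal rats 1 to 3, 1.03, 0.794 and 0.777 in the sham rats, and 0.823 and 0.901 in normal rats 11 and 12. The sham rats lay among the normal rats and every ischemia rat was far above, a difference of 4.94 ± 0.62 (adjusted p = 3.11e-06). Lcn2, the iron-carrier binding protein known as NGAL and used as a urinary marker, had levels of 10.05, 13.4 and 10.7 in ischemia rats and 0.596, 0.61 and 0.618 in sham rats. Its 5 normal rats lay between 0.382 and 0.589, and the difference was 4.53 ± 0.35 (adjusted p = 4.2e-09).

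Other injury genes followed. Pvr, the poliovirus receptor CD155, differed by 4.49 ± 0.33, and a second probe of it by 3.80. Plaur, the urokinase receptor, differed by 4.06 ± 0.33 with sham rat 3 not measured, and its dimmer probe by 1.45. Clu, the extracellular chaperone clusterin, differed by 3.11 ± 0.49, with ischemia levels of 35, 19.8 and 9.24 against 1.10 to 1.71 in sham rats. Tnfrsf12a, the receptor of the cytokine TWEAK, differed by 3.05 ± 0.52. Spp1, osteopontin, was not called. Its ischemia levels of 69.2, 85.0 and 13.5 overlapped the sham levels of 13.7 to 22, with ischemia rat 3 lowest, and without that rat Spp1 was called (2.24). The median change over the injury list was 3.11, 2.80 and 1.23 in ischemia rats 1, 2 and 3. Without ischemia rat 3, 15 genes of the list were called.

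The 15 genes with the largest positive difference and all 6 rats measured without overlap leave out Plaur for its missing sham rat. All were called in ischemia against normal rats, beside 22.5% of all genes called higher there, and the choice by the difference favours this. None was called in sham, where only 0.325% of all genes were called higher and 0.0488% lower, so that count says little. In the limma test 3 of 15 had an unadjusted p under 0.05 in sham. None of the 15 was called between the normal rats of the lots, beside 2.6% of all genes higher and 3.48% lower. Besides Havcr1, Lcn2 and Pvr they include stress genes and signalling genes described with their lists. Il24, an interleukin 10 family cytokine, lay at the floor in normal rats 1 to 3 and between 2.18 and 3.19 in ischemia rats, at least 26.1-fold higher, with sham rats at 0.12 or the floor. Cgn encodes cingulin, a protein of tight junctions. Its level was 3.46, 3.10 and 2.84 in ischemia rats and 0.225 to 0.260 in sham rats, a difference of 3.89 ± 0.27 (adjusted p = 1.1e-09). Rdm1, a RAD52 motif protein, differed by 4.00 ± 0.32. Glycam1, a mucin-like adhesion glycoprotein, differed by 3.37 ± 0.78. Adamts1, a secreted metalloprotease, had levels of 34.8 to 43.7 in ischemia rats and 1.87 to 2.68 in sham rats, a difference of 3.23 ± 0.62. Akr1b8, an aldose reductase family enzyme, differed by 4.57 ± 1.5 and varied among rats. Sham rat 3 had a level of 6.07 against 0.839 and 0.882, and normal rat 12 had 2.75 against 0.679. Its call was lost without sham rat 1, sham rat 2, normal rat 1, normal rat 3 or normal rat 12, with an adjusted p of up to 0.182.

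**Figure D2:**
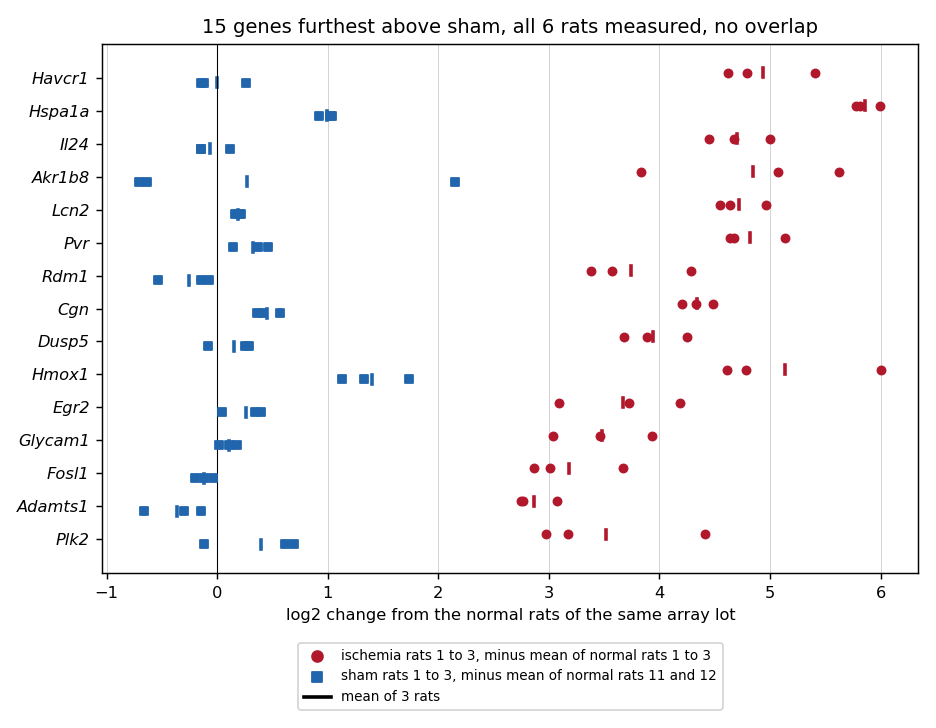
The 15 genes with the largest positive difference among called genes measured in all 6 rats without overlap, which leaves out Plaur, with the log2 change of each ischemia rat from normal rats 1 to 3 (red circles) and of each sham rat from normal rats 11 and 12 (blue squares), and the mean of 3 rats as a bar. The ischemia rats lie to the right of the sham rats for every gene, and sham rat 3 is the outlying square for Akr1b8.

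Of 30 proximal tubule transporters tested, 17 were lower in ischemia than in sham and none higher, with a median difference of -0.91, against -0.84 for the change in ischemia and 0.09 in sham. Slc9a3 encodes the sodium-hydrogen exchanger NHE3, which drives much of the sodium uptake in this segment. Its level was 1.22, 1.33 and 0.378 in ischemia rats, 2.58, 5.04 and 6.76 in normal rats 1 to 3, 4.21, 4.52 and 3.96 in sham rats, and 3.56 and 4.24 in normal rats 11 and 12. All ischemia rats were below all other rats, and the difference was -2.51 ± 0.50 (adjusted p = 0.000693). Slc13a2, the citrate transporter, differed by -1.99 ± 0.21, and its other probe by -1.70. Slco1a6 and Slco1a1, organic anion transporters, differed by -1.49 ± 0.33 and -1.46 ± 0.34. The water channel Aqp1 had levels of 12.6 to 13.5 in ischemia rats and 24.0 to 26.6 in sham rats, a difference of -1.18 ± 0.22. The endocytic receptor Cubn differed by -0.96 ± 0.24. Its partner Lrp2, megalin, differed by -0.90 ± 0.29 (adjusted p = 0.0227), a call lost without ischemia rat 1 or 2 or normal rat 11 or 12 (adjusted p of up to 0.0865). Slc2a2, the basolateral glucose transporter GLUT2, was called higher in ischemia against normal rats, by 1.47 ± 0.30, while its difference from sham of 0.73 ± 0.45 was not called. Without ischemia rat 1 it was called higher (1.12).

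Of 39 metabolic enzymes and regulators of the same segment, 24 were lower than in sham and none higher, with a median difference of -0.99. Against normal rats, 29 fell in ischemia and 2 rose, and the direct comparison gave 27 lower and 2 higher. Ugt2b7, a glucuronosyltransferase, was higher both times. It had levels of 0.676, 1.22 and 5.5 in ischemia rats and 0.219 to 0.781 in sham rats, and its difference of 2.00 ± 0.95 was not called. G6pc1, glucose 6-phosphatase, and Pck1, phosphoenolpyruvate carboxykinase, are the enzymes that let the proximal tubule release glucose. G6pc1 had levels of 10.3, 7.21 and 4.45 in ischemia rats, 27, 30.04 and 33.0 in normal rats 1 to 3, 17.3, 27.6 and 16.6 in sham rats and 16.4 and 20.2 in normal rats 11 and 12. The ischemia rats were below all others, with a difference of -2.24 ± 0.40 (adjusted p = 0.000201). Pck1 differed by -1.61 ± 0.44. Gcgr, the glucagon receptor, had levels of 0.266 to 0.352 in ischemia rats and 1.23 to 1.49 in sham rats, a difference of -2.20 ± 0.21 (adjusted p = 5.77e-08). The kynurenine pathway enzymes Kmo and Kynu, of tryptophan breakdown, differed by -1.66 ± 0.47 and -1.65. The transcription factor Hnf4a, which maintains the proximal tubule program, differed by -1.34 ± 0.38. In ischemia rat 3 the fall was smaller over the lists, with a median change of -0.39 for transport and -0.60 for metabolism, against -1.05 and -1.16 in ischemia rat 1. Without ischemia rat 3, 22 transport genes and 31 metabolism genes were lower.

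Fatty acid oxidation is the main fuel pathway of the proximal tubule. Of 32 tested genes of the list, 17 were lower and 1 was higher, with a median difference of -0.88. The higher gene was Pmp22, a myelin membrane protein that does not belong to fatty acid oxidation or to peroxisomes. Ehhadh, the bifunctional enzyme of peroxisomal oxidation, had levels of 1.61, 1.67 and 1.45 in ischemia rats and 5.27 to 6.42 in sham rats, and 4.39 to 9.62 in the 5 normal rats. All 3 ischemia rats were below every sham and normal rat, and the difference was -2.35 ± 0.35 (adjusted p = 2.67e-05). Ivd, of leucine breakdown, differed by -1.54 ± 0.17, and Acsl1, which activates fatty acids, by -1.46 ± 0.41. The coactivator Ppargc1a rose in ischemia against normal rats by 1.21 ± 0.24, and its difference from sham of 0.83 ± 0.35 was not called with all rats but was without ischemia rat 3 (1.02).

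The respiratory chain and citrate cycle list had a smaller shift. Of 37 genes tested, 10 were lower and none higher, beside 11.1% lower and 13.2% higher among all genes. The median difference was -0.36. Sdhd, a subunit of succinate dehydrogenase, had levels of 11.8 to 13.7 in ischemia rats and 21.1 to 22 in sham rats, a difference of -0.87 ± 0.15. Slc25a10, the mitochondrial dicarboxylate carrier, differed by -1.20 ± 0.29. Atp5f1c, a subunit of ATP synthase, differed by -1.21 ± 0.50 and was not called, with ischemia levels of 28.5, 31.7 and 6.63. The count of lower genes depended on single rats, being 17 without ischemia rat 3, 6 without sham rat 3 or normal rat 11, and 3 without normal rat 12. It also depended on the other groups of the series, being 2 with only the 4 groups in the fit.

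Of 33 tested genes of the nephron beyond the proximal tubule, from the loop of Henle to the collecting duct, 8 were lower and 1 was higher. Over all genes, 11.1% were lower and 13.2% higher. The median difference of the list was -0.34. Slc12a1, the furosemide-sensitive sodium-potassium-chloride cotransporter, had levels of 7.28, 6.89 and 17.5 in ischemia rats and 18.5 to 23.1 in sham rats, a difference of -1.79 ± 0.34 (adjusted p = 0.000354). Egf, the epidermal growth factor precursor, made in the thick ascending limb and the distal convoluted tubule, had levels of 2.13, 1.94 and 1.82 in ischemia rats, 7.81, 11.5 and 10.6 in normal rats 1 to 3, 7.06, 8.78 and 9.32 in sham rats and 7.63 and 7.98 in normal rats 11 and 12. No other rat came near the ischemia rats, and the difference was -2.42 ± 0.28 (adjusted p = 1.08e-06). Ppp1r1a, an inhibitor of protein phosphatase 1, had levels of 0.975, 0.92 and 1.57 in ischemia rats and 6.5 to 8.77 in sham rats, a difference of -2.82 ± 0.26 (adjusted p = 3.21e-08). Casr, the calcium-sensing receptor, differed by -2.90 ± 0.48, and its dimmer probe by -1.20. Hsd11b2, which inactivates glucocorticoid, and Nr3c2, the mineralocorticoid receptor, differed by -1.27 ± 0.28 and -1.11 ± 0.27.

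Neither Umod nor Aqp2 was called. Umod, uromodulin, varied between 2.29 and 33.9 in ischemia rats and between 8.17 and 73.7 in normal rats 1 to 3, and the difference was -1.17 ± 1.06. Aqp2, the collecting duct water channel, differed by -0.37 ± 0.38, with ischemia levels of 5.61, 6.5 and 15.1, and was called without ischemia rat 3 (difference -0.81). Ptger3, a prostaglandin E receptor and the higher gene of the list, differed by 0.59, a call lost without normal rat 2, 11 or 12 or sham rat 1 or 2 (adjusted p of up to 0.111). The direct comparison with sham called 5 genes of the list higher and 14 lower, beside 25.9% and 21% of all genes.

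Of the 15 genes with the largest negative difference, chosen in the same way, 13 fell in ischemia against normal rats and 13 were called in the direct comparison with sham. The choice by the difference favours both counts. Over all genes, 20.9% were lower in ischemia and 21% lower in the direct comparison. Slc16a7, a monocarboxylate transporter, had levels of 0.395, 0.386 and 0.319 in ischemia rats and 1.53 to 1.87 in sham rats, a difference of -2.65 ± 0.25 (adjusted p = 5.77e-08). Slc38a3, a glutamine transporter, differed by -2.69 ± 0.37, and Fam180a and Dapl1 by -2.45 ± 0.54 and -2.40 ± 0.44. Fibin lay at the floor in ischemia rats 1 and 2 and differed by -2.74 ± 0.49. In 4 of the 15, Slc25a25, Apoo, Depp1 and Ipmk, normal rats 11 and 12 were called lower than normal rats 1 to 3, so the value rests partly on which normal rats were subtracted. Slc25a25, a mitochondrial ATP-magnesium carrier, differed by -2.98 ± 0.39 and by -0.81 in the direct comparison. Its ischemia change was 0.00 ± 0.26 and its sham change 2.98 ± 0.29, and normal rats 11 and 12 stood below normal rats 1 to 3 by -2.16. Depp1, a fasting-induced autophagy regulator, differed by -2.88 ± 0.64 and by -0.78 directly, and Apoo, a mitochondrial membrane protein, by -2.88 ± 0.80 and by -0.90 directly. Neither direct value was called. Pofut2, a fucosyltransferase, differed by -3.58 ± 1.21 and by -2.14 directly. Normal rat 12 had a Pofut2 level of 0.202 and normal rat 11 of 2.49. Without normal rat 12 the difference was -1.76 (adjusted p = 0.388), and the call was also lost without any sham rat, ischemia rat 1 or 2, or normal rat 2 or 3 (adjusted p of 0.0529 to 0.0734).

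**Figure D3:**
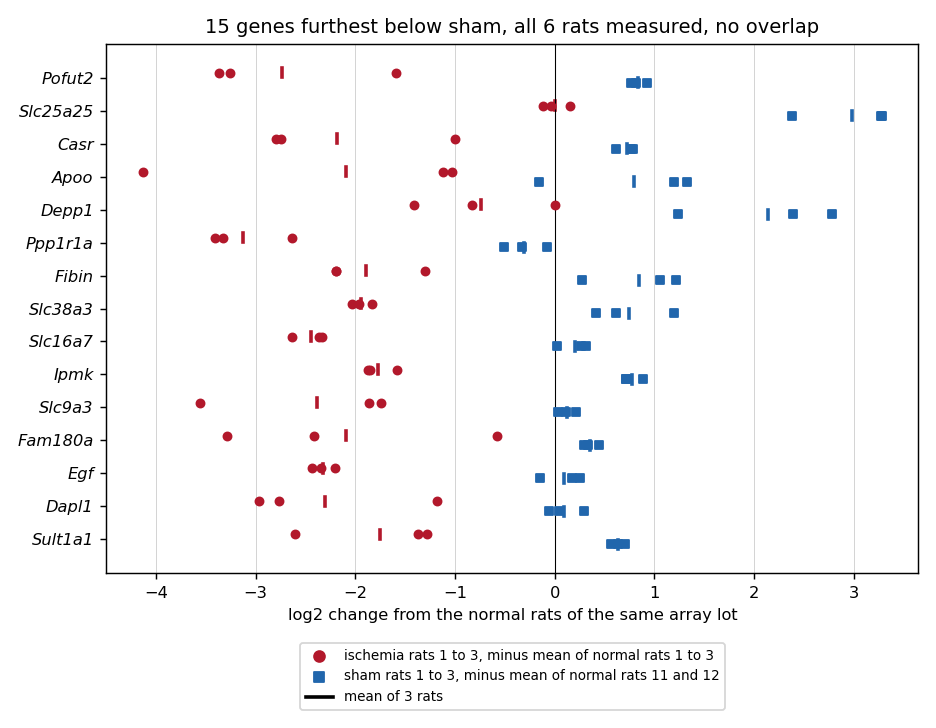
The 15 genes with the largest negative difference among called genes measured in all 6 rats without overlap, drawn as log2 change of each ischemia rat from normal rats 1 to 3 (red circles) and of each sham rat from normal rats 11 and 12 (blue squares), with the mean of 3 rats as a bar. For Slc25a25 the ischemia rats lie at 0 and the sham rats near 3, while for Ppp1r1a, Slc16a7 and Egf the sham rats lie near 0 and the ischemia rats below -2.

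Of 18 heat shock genes tested, 9 were higher than in sham and none lower, beside 13.2% and 11.1% of all genes. The median difference was 0.86, and with only the 4 groups in the fit 5 genes were higher. Against normal rats, 12 were higher in ischemia and 2 lower, and the direct comparison with sham gave 11 higher and 2 lower. Both times the lower genes were the small heat shock protein Hspb6 (-0.76 and -0.80) and Hsbp1, a binding protein of heat shock factor 1 (-0.36 and -0.42). Heat shock factors bind inverted repeats of a short sequence, the heat shock element, in the promoters of these genes. Hspa1a encodes the inducible HSP70 chaperone. Its level was 82.8, 96.4 and 84.8 in ischemia rats, 1.28, 1.63 and 1.64 in normal rats 1 to 3, 2.16, 2.35 and 2.32 in sham rats, and 1.13 and 1.15 in normal rats 11 and 12. The 3 sham rats stood slightly above all normal rats, a change of 0.99 ± 0.39 that was not called, and the difference was 4.87 ± 0.52 (adjusted p = 3.66e-07). The cochaperone Stip1 differed by 1.74 ± 0.23, the small heat shock proteins Cryab and Hspb8 by 1.31 ± 0.29 and 1.28 ± 0.36, and Tcp1, a subunit of the chaperonin of the cytosol, by 1.04 ± 0.27. The constitutive HSP70 Hspa8 was higher by 0.93 ± 0.30, with levels of 77.1, 86.9 and 143 in ischemia rats and 58.0 to 64.3 in sham rats, a call lost without normal rat 3, 11 or 12, ischemia rat 3 or sham rat 2 (adjusted p of up to 0.0871). The mitochondrial chaperonin pair Hspd1 and Hspe1 differed by 0.84 ± 0.17 and by 0.56 ± 0.29, and Hspe1 was not called, although it was without ischemia rat 1 (0.79). The cochaperone Bag3 was not called (1.13, adjusted p = 0.275) but was called without ischemia rat 3 (2.16).

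A heat shock element of 3 inverted repeats, written here as TTC, GAA and TTC with any 2 bases between them, was found on either strand in 4 of 15 promoters of the list that have an entry (Hspa8, Hspd1, Hspe1 and Chordc1). It occurs in 0.798% of all 33469 promoters of the table and in 0.457% of those of genes tested here. Each window ran from 250 bases before to 50 after the gene's start. The upstream 250 bases of Hspa8 and Hspe1 are shown because they hold these elements, in capitals, at 2 separate places in Hspa8 and as 2 overlapping matches in Hspe1. Hspd1 and Hspe1 are divergent neighbours whose windows share 211 bases. The sequences are from RefSeq, assembly GRCr8, plus strand, chr8:50080264-50080513 for Hspa8 and chr9:64084077-64084326 for Hspe1.
Hspa8: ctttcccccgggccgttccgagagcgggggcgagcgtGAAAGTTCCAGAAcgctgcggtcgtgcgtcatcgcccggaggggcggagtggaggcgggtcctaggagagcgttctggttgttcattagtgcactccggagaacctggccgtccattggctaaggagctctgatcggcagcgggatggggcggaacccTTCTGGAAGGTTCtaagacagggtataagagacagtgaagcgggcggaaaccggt
Hspe1: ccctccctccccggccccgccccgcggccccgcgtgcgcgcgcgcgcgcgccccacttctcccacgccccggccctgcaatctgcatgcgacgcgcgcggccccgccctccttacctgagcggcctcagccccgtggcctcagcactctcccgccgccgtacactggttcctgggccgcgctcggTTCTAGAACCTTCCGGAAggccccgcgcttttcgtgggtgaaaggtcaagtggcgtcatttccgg
The Hspa8 matches start 213 and 55 bases before the gene's start and the Hspe1 matches 65 and 60 bases before it. The match is a description of the letters, and the window of Hspa1a, the gene with the largest difference of the list, held none.

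The oxidant and metal response list did not move as a block. Of 29 genes tested, 4 were higher and 5 lower, beside 13.2% and 11.1% of all genes, with a median difference of 0.10. Hmox1, heme oxygenase 1, had levels of 21.2, 23.9 and 55.9 in ischemia rats, 0.814 to 0.904 in normal rats 1 to 3, 1.82, 1.58 and 2.41 in sham rats, and 0.826 and 0.636 in normal rats 11 and 12. Sham rats were all above the normal rats, with a change of 1.40 ± 0.33 that was not called (adjusted p = 0.063), and the difference was 3.74 ± 0.44 (adjusted p = 1.6e-06). Srxn1, sulfiredoxin, which repairs overoxidized peroxiredoxins, had levels of 6.55 to 9.29 in ischemia rats and 0.796 to 1.59 in sham rats, a difference of 2.76 ± 0.44. Txnrd1, thioredoxin reductase, differed by 1.92 ± 0.51, a call lost without normal rat 12 (adjusted p = 0.0548). The glutathione synthesis enzymes Gclc and Gclm were lower, by -0.97 ± 0.29 and -0.91 ± 0.20, the latter not measured in ischemia rat 3 or normal rat 3. The Gclc call was lost without normal rat 1 or 12 (adjusted p of up to 0.0625). The metallothionein Mt1 was lower by -1.25 ± 0.40, with a sham change of 1.06 and an ischemia change of -0.19, neither called. Its difference lost the call without normal rat 1 or 12, ischemia rat 1 or 2, or sham rat 3 (adjusted p of up to 0.134). The count of 5 lower genes was 2 without normal rat 1 or 12, and 3 without ischemia rat 1, ischemia rat 2 or sham rat 3. With only the 4 groups in the fit, 2 genes were higher and 1 was lower. The direct comparison with sham gave 9 higher and 5 lower, beside 25.9% and 21% of all genes. Fth1, a ferritin subunit, varied from 1.33 to 61.2 among sham rats and was not called.

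The Srxn1 promoter is shown because the gene was among the strongest of this list and its window holds the AP-1 element TGAGTCA. This element occurs in 4.63% of all promoters, in 3.34% of those of genes tested here and in 2 of 23 promoters of the list. The Srxn1 window had 2 matches. The first, in capitals, starts 62 bases before the gene's start, and the second spans the start and is not printed. The window is RefSeq GRCr8, plus strand, chr3:161064562-161064811.
Srxn1: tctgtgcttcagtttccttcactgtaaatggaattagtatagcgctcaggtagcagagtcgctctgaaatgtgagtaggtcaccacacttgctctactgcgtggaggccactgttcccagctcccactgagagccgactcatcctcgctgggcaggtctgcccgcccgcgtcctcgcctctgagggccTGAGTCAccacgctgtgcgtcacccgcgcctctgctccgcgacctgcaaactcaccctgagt
The antioxidant response element core, TGACNNNGC on either strand, was found in 8 of 23 promoters of the list (34.8%). It occurs in 12.1% of all promoters and in 14.3% of those of genes tested here. The 8 genes were Gclm, Prdx1, Prdx5, Mt1, Gpx2, Sod2, Gsta1 and Nfe2l2, and the Srxn1 window held no match. Gclm and Mt1 are described above as lower. No test was made of either share.

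The unfolded protein and integrated stress responses, which slow translation and raise chaperones of the endoplasmic reticulum, had 31 genes tested. Of these, 17 were higher and 2 lower, beside 13.2% and 11.1% of all genes. The median difference was 0.64. With only the 4 groups in the fit, 11 were higher and none lower. Chac1, a glutathione-degrading enzyme induced by the integrated stress response, had levels of 1.54, 1.93 and 1.53 in ischemia rats and 0.203 to 0.240 in sham rats, a difference of 2.94 ± 0.29 (adjusted p = 9.32e-08). Ppp1r15a, which restores translation as GADD34, differed by 2.53 ± 0.41, and Mthfd2, of mitochondrial folate metabolism, by 2.05 ± 0.34. The endoplasmic reticulum chaperone Hspa5, known as BiP, had levels of 59.7, 58.8 and 44.4 in ischemia rats and 22.1 to 23.7 in sham rats, a difference of 1.27 ± 0.28. The lower genes were Psat1 and Psph, both of serine synthesis, at -1.62 ± 0.51 and -0.73 ± 0.26. Both calls were lost without normal rat 2, 11 or 12 (adjusted p of up to 0.17), and that of Psph also without normal rat 1, ischemia rat 2 or 3, or sham rat 2 or 3.

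Immediate early genes, the first transcription factors and phosphatases induced by a stimulus, were in part higher in ischemia 8 h after reperfusion. Of 31 tested, 11 were higher than in sham and 1 was lower, beside 13.2% and 11.1% of all genes. The median difference was 0.61. Dusp5, an ERK phosphatase, had levels of 7.45, 8.58 and 11.1 in ischemia rats and 0.709 to 0.916 in sham rats, a difference of 3.79 ± 0.46 (adjusted p = 2.55e-06). Egr2 and Fosl1, both transcription factors, differed by 3.40 ± 0.94 and 3.30 ± 0.37, and the other probe of Fosl1 by 5.30. Klf6 and Klf5 differed by 2.97 ± 0.65 and 2.36 ± 0.34. Atf3 differed by 2.41 ± 0.71, a call lost without normal rat 11 or 12 (adjusted p of up to 0.0529).

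Several of these genes also stood higher in normal rats 1 to 3 than in normal rats 11 and 12. Fos had levels of 9.61 to 12.6 in ischemia rats, 0.879 to 1.31 in normal rats 1 to 3, 0.764 to 1.70 in sham rats, and 0.459 and 0.223 in normal rats 11 and 12. The ischemia rats were above all others, yet the difference of 1.5 ± 1.06 was not called, while the direct value of 3.30 was. Of the dimmer Fos probes, 1 was called (1.68, adjusted p = 0.0327) and 1 was not (2.08, adjusted p = 0.125). Egr1 (1.98 and 3.21) and Myc (2.04 and 3.42) were likewise not called for the difference but were called directly. Without normal rat 3 or ischemia rat 3 the difference of Myc was called (2.36 and 2.79). With no lot term, 22 of the 31 genes were called higher and 1 lower, beside 25.9% and 21% of all genes, and the list median was 1.67. The only lower gene was Per1, described with the sham changes.

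Among p53 targets and apoptosis genes, 8 of 30 were higher and 3 lower, beside 13.2% and 11.1% of all genes. The median difference was 0.45. Plk2, a polo-like kinase, differed by 3.12 ± 0.63 and the pore-forming Bak1 by 1.44 ± 0.25. The lower genes were Sesn1, a p53-induced regulator of mTOR (-1.27 ± 0.18), Aifm1, a mitochondrial flavoprotein (-1.02 ± 0.18), and Bnip3l, a mitophagy receptor (-0.73). Phlda1 had ischemia levels of 4.17 to 7.07 and sham levels of 0.748 to 0.863, and its difference of 3.18 ± 1.20 just missed the threshold (adjusted p = 0.0568). With no lot term, 18 genes were higher and 3 lower, beside 25.9% and 21% of all genes. Without normal rat 12, 4 genes of the list were higher.

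Of 27 cell cycle genes tested, 4 were higher and 2 lower, near the 24.2% called over all genes. Cdkn2b, the inhibitor p15, lay at the floor in normal rats 1 to 3 and rose in ischemia at least 4.56-fold. Its difference was 2.25 ± 0.35, and its dimmer probe gave 0.50. Rbl2, a pocket protein that holds cells in quiescence, was lower by -0.97 ± 0.19. The proliferation markers Mki67 and Ccna2 differed by -0.07 ± 0.37 and 0.32 ± 0.38 and were not called. The count of higher genes was 1 without normal rat 12, and 2 without normal rat 2, normal rat 3, ischemia rat 3 or sham rat 2. With no lot term, 4 were higher and 8 lower, beside 25.9% and 21% of all genes.

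Growth factors and their receptors went in both directions, with 6 of 27 higher and 4 lower, beside 13.2% and 11.1% of all genes. Egfr, the receptor of epidermal growth factor, was higher by 1.54 ± 0.34, with levels of 0.504, 0.511 and 0.968 in ischemia rats and 0.222 to 0.241 in sham rats, while its ligand Egf was among the largest falls. The hepatocyte growth factor receptor Met was higher by 1.25 ± 0.32 (a call lost without normal rat 12, adjusted p = 0.0506), Tgfb1 by 1.31 ± 0.21 and the activin antagonist Fst by 1.36 ± 0.32. Vegfa, the vascular growth factor, was lower by -0.79 ± 0.24, a call lost without normal rat 11 (adjusted p = 0.0904). Igfbp5, a binding protein of insulin-like growth factors, was lower by -1.43 ± 0.26 on its bright probe and by -0.56, not called, on the dim one. The direct comparison called 10 higher and 9 lower, beside 25.9% and 21% of all genes.

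Among cytokines, chemokines and adhesion molecules, 18 of 51 tested were higher, 2 were lower and the others were not called. Over all genes, 13.2% were higher and 11.1% lower. The median difference of the list was 0.50. The neutrophil chemokine Cxcl1 had levels of 3.52, 3.27 and 2.18 in ischemia rats, 0.191 to 0.351 in sham rats and 0.185 to 0.294 in the 5 normal rats, a difference of 3.09 ± 0.70 (adjusted p = 0.00222). Ccl20, a chemokine of lymphocytes and dendritic cells, differed by 3.11 ± 0.67, Il1b by 3.07 ± 0.41 and Il6 by 2.64 ± 0.57. Ccl4 differed by 2.80 ± 0.84, a call lost without normal rat 11 or 12 (adjusted p of up to 0.0591). Ccl2, the monocyte chemokine, had ischemia levels of 19.0, 8.91 and 0.969 and was not called with all rats but was without ischemia rat 3 (3.36). Tnf differed by 0.08 ± 0.23 and was lower in the direct comparison (-0.53). There, 27 genes of the list were higher and 5 lower, beside 25.9% and 21% of all genes. The 2 genes with a called lower difference were Cxcl12, a homing chemokine made by resident cells (-1.90 ± 0.25), and Mif (-0.80 ± 0.17).

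Of 36 leukocyte genes tested, 4 were higher and none lower, with a median difference of 0.10, beside 13.2% higher and 11.1% lower among all genes. The defining markers Ptprc (CD45) and Itgam (CD11b) differed by -0.49 ± 0.26 and 0.11 ± 0.19 and were not called, and without ischemia rat 1 Ptprc was called lower (-0.70). The higher genes were S100a9 (2.55 ± 0.69), which neutrophils hold in bulk, the endotoxin coreceptor Cd14 (1.90 ± 0.38), the adaptor Tyrobp (1.08 ± 0.20) and the complement gene C1qb (1.27 ± 0.36, a call lost without normal rat 12 with adjusted p = 0.0808). The summed level of the list was 145 to 160 in ischemia rats, 94.0 to 129 in sham rats, 123 to 135 in normal rats 1 to 3 and 94.5 to 96.4 in normal rats 11 and 12. The part of cell numbers in these values was not tested. The direct comparison with sham called 9 genes of the list higher and none lower, beside 25.9% and 21% of all genes. RT1-Bb, a class II histocompatibility gene, lay at the floor in some rats of each group and reached 2.93 in sham rat 2, and was not called. In the complement and acute phase list, 3 of 18 were higher, beside the same 13.2% of all genes. A2m, a protease inhibitor, lay at the floor in all sham and normal rats and at 0.338 to 0.511 in ischemia rats, at least 4.06-fold higher. The fibrinogen chain Fgb differed by 1.94 ± 0.48. The direct comparison called 5 genes of this list higher and 3 lower, beside 25.9% and 21% of all genes.

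Glycolysis and hypoxia genes were higher in part, with 7 of 30 higher and 2 lower, beside 13.2% and 11.1% of all genes. The median difference was 0.32. Pkm, pyruvate kinase, had levels of 18.1, 15.3 and 15.5 in ischemia rats and 5.27 to 5.97 in sham rats, a difference of 1.73 ± 0.22. Ldha, lactate dehydrogenase, differed by 1.54 ± 0.32, and its other probe by 1.27. Adm, the vasodilator adrenomedullin, differed by 1.91 ± 0.30. Hk2, hexokinase 2, lay at the floor in normal rats 1 to 3 and rose at least 2.46-fold. Pfkfb4, of fructose 2,6-bisphosphate metabolism, was lower by -2.10 ± 0.43. Hif1a had ischemia levels of 7.18, 6.13 and 0.637 and was not called with all rats but was without ischemia rat 3 (1.17). Without that rat 8 genes of the list were lower, and without normal rat 11 only 1 was. The direct comparison gave 10 higher and 5 lower, beside 25.9% and 21% of all genes.

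In the actin and microtubule list, 11 of 29 were higher and 1 lower, beside 13.2% and 11.1% of all genes. The median difference was 0.64. Csrp3, a muscle LIM protein, lay at the floor in normal rats 1 to 3 and at 0.639 to 1.23 in ischemia rats, at least 8.51-fold higher. The tubulin Tubb2b differed by 1.80 ± 0.52, and the actin nucleation subunit Arpc1b by 1.76 ± 0.26 on its bright probe and by 0.91, not called, on the dim one. The lower gene was Vil1, villin, which bundles actin in the brush border of the proximal tubule (-0.92 ± 0.21 on its bright probe). A dimmer Vil1 probe had the opposite sign and was not called (0.59, adjusted p = 0.0729). In the ribosome and nucleolus list, 11 of 26 were higher and none lower, beside 13.2% and 11.1% of all genes. The median difference was 0.52. Npm1, nucleophosmin, had levels of 50.3, 52.2 and 86.4 in ischemia rats and 15.4 to 16.0 in sham rats, a difference of 1.68 ± 0.21 (adjusted p = 2.55e-06). The nucleolar proteins Nop58 and Fbl differed by 1.59 ± 0.16 and 1.39 ± 0.16, the RNA polymerase I subunit Polr1b by 1.5 ± 0.26, and the translation inhibitor Eif4ebp1 by 2.18 ± 0.27. The count was 18 in the direct comparison with sham and 17 after quantile normalization. In the proteasome list, 5 of 29 were higher, beside 13.2% of all genes, with a median difference of 0.44. That count ranged from 2 without normal rat 11 to 14 without ischemia rat 1, was 12 without normal rat 1, and 3 without sham rat 1, normal rat 2, normal rat 3 or normal rat 12. In the direct comparison it was 24, and after quantile normalization 17.

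Of 26 endothelial genes, 5 were higher and 1 lower, beside 13.2% and 11.1% of all genes, with a median difference of 0.26. Procr, the receptor of protein C, differed by 3.02 ± 0.37 with ischemia rat 3 not measured. Edn1, the vasoconstrictor endothelin 1, had levels of 1.17, 1.31 and 1.5 in ischemia rats and 0.310 to 0.365 in sham rats, a difference of 1.99 ± 0.28 (adjusted p = 1.16e-05). The transcription factor Sox18 differed by 1.63 ± 0.32. Vwf, von Willebrand factor, was lower by -1.92 ± 0.51, a call lost without normal rat 12 (adjusted p = 0.0541). The defining markers Pecam1 and Kdr differed by 0.26 ± 0.23 and 0.20 ± 0.40 and were not called, Kdr at levels near the floor. The direct comparison gave 8 higher and 4 lower, beside 25.9% and 21% of all genes. In the renin-angiotensin, endothelin, prostaglandin and sodium list, 11 of 38 were higher and 1, Nr3c2, was lower. Over all genes, 13.2% were higher and 11.1% lower. The count of higher genes of this list was 7 without normal rat 2 or 11 and 5 without normal rat 12.

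In the glomerulus list, 1 of 8 was higher, beside 13.2% of all genes. It was Pdgfrb, the platelet-derived growth factor receptor of mesangial cells and pericytes (0.91 ± 0.19). A Pdgfrb probe near the floor differed by 0.43 and was not called. In the fibroblast, smooth muscle and matrix list, 8 of 38 were higher and 4 lower, beside 13.2% and 11.1% of all genes. Serpinh1, the collagen chaperone, was higher by 1.76 ± 0.28 and the metalloprotease Mmp11 lower by -2.0 ± 0.34. The collagen Col1a1 differed by 0.13 and was not called. The count of lower genes was 2 without normal rat 12. The direct comparison gave 14 higher and 2 lower, beside 25.9% and 21% of all genes. Of the adrenal gland and fat tissue list, none of 10 genes was called by limma, and 0 had an unadjusted p under 0.05. Of the red blood cell list none of 3 was called, and 2 had an unadjusted p under 0.05. The direct comparison called 1 gene of the former higher, and 1 of the latter higher and 1 lower. The fat marker Adipoq differed by 0.83 ± 0.51. Nphs1, Cd68, Cyp11b1, Cyp11b2 and Slc34a1 were not analysed here.

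**Figure D4:**
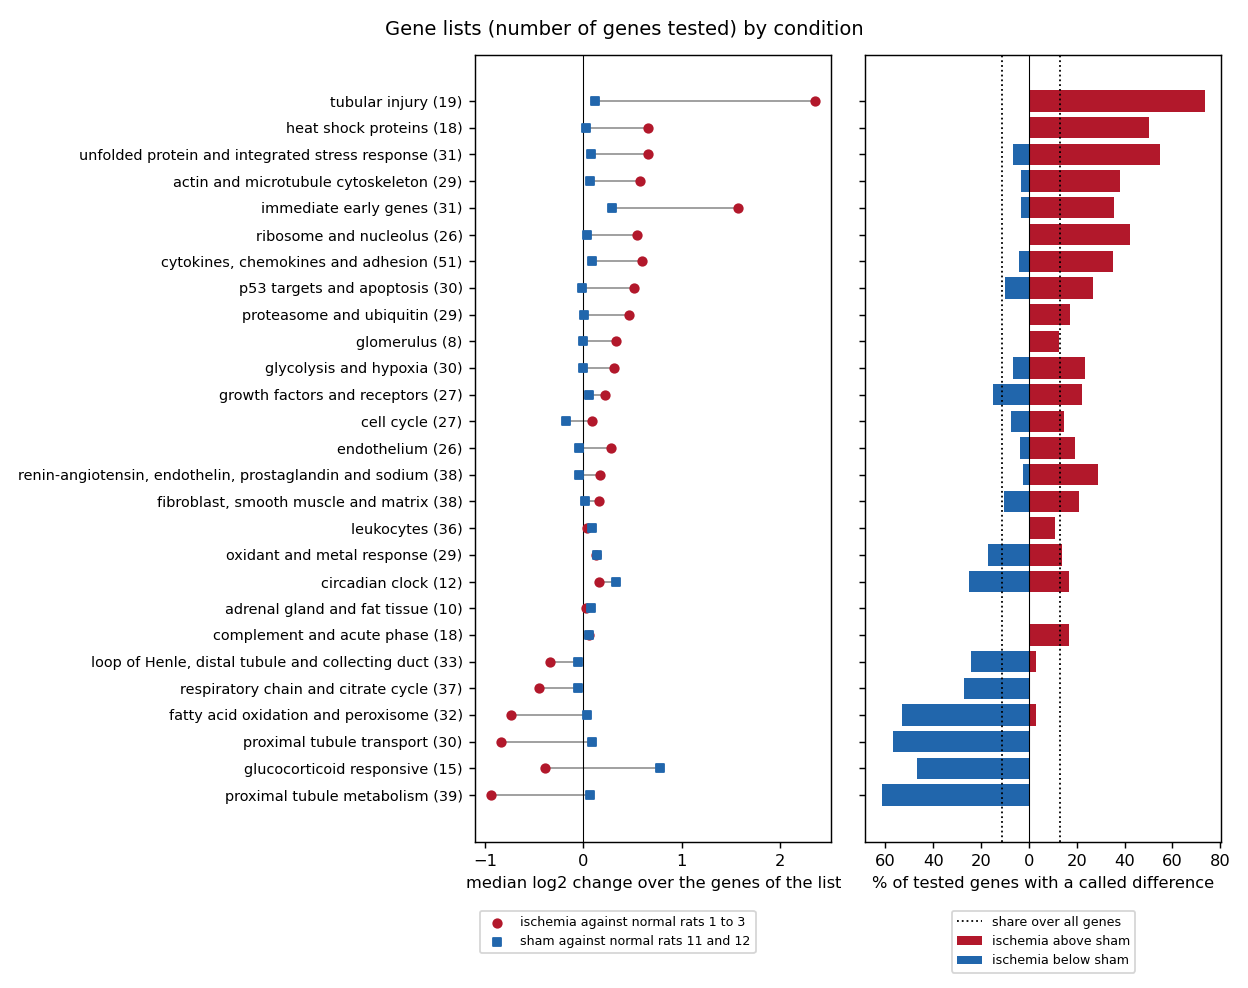
Left, the median log2 change over the genes of each list after ischemia (red circles) and after sham surgery (blue squares), with the number of genes tested in brackets. Right, the percentage of those genes with a called difference, ischemia above sham to the right and below it to the left, beside the shares over all genes (dotted, 13.2% and 11.1%). Tubular injury stands at the top with 14 of 19 genes higher and proximal tubule metabolism at the bottom with 24 of 39 lower.

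Few genes were called after sham surgery, in a comparison of 3 rats with 2. Of the 20 called higher, 12 stood in all 3 sham rats above all 5 normal rats. These genes were picked as higher than in normal rats 11 and 12 in the same values. The share of all genes with such a separation was not computed. Cebpd, an acute phase transcription factor, had levels of 3.71, 2.95 and 5.18 in sham rats, 0.804 and 0.817 in normal rats 11 and 12, 1.69 to 2.16 in normal rats 1 to 3, and 8.12 to 14.8 in ischemia rats. It changed by 2.25 ± 0.32 after sham surgery (adjusted p = 0.0011) and by 2.38 ± 0.28 after ischemia, and the difference of 0.13 had a 95% interval from -0.75 to 1.01. The direct value of Cebpd, 1.38, was called. Normal rats 11 and 12 were called lower than normal rats 1 to 3, by -1.25, so the difference rests partly on which normal rats were subtracted. Klf10, an early transforming growth factor beta response gene, had levels of 0.917, 0.876 and 0.973 in sham rats, 0.318 to 0.421 in all normal rats, and 1.00 to 1.11 in ischemia rats. It changed by 1.21 ± 0.18 and 1.58 ± 0.16, with a difference between -0.13 and 0.85.

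Of the 20 genes that rose after sham surgery, 8 also rose after ischemia (40.0% of the sham genes and 0.58% of the ischemia genes). Apart from Cebpd and Klf10 these were Cdkn1a, the cell cycle inhibitor p21, Zfp36, which destabilizes cytokine mRNA, Crem, a cyclic AMP response factor, the scaffold Akap12, S100a9 and Fv1. The difference was called for 2 of the 8. S100a9 had levels of 1.25, 1.19 and 1.38 in sham rats, 0.188 to 0.290 in all normal rats and 5.09 to 11.6 in ischemia rats. It was called higher after both operations, with a difference of 2.55 ± 0.69 (adjusted p = 0.0081). Its sham call was lost when any sham rat, normal rat 11 or normal rat 12 was left out (adjusted p of up to 0.321). Fv1 differed by 0.47 ± 0.16, a call lost without ischemia rat 1, sham rat 2 or normal rat 1, 11 or 12 (adjusted p of up to 0.1). Cdkn1a had levels of 3.56, 2.75 and 2.22 in sham rats, 0.991 and 0.660 in normal rats 11 and 12, 1.25 to 2.51 in normal rats 1 to 3 and 8.03 to 11.8 in ischemia rats. Its difference of 0.68 had an interval from -0.40 to 1.76, while the direct value of 1.89 was called, and its dim probe gave a sham change of 0.72 that was not called. Zfp36 changed sign between the settings, with a difference of -0.50 and a direct value of 0.94.

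Of the other sham genes, 8 were not called in ischemia and 4 were called in the opposite direction. Slc25a25 had levels of 5.59, 3.00 and 5.56 in sham rats, 0.568 and 0.583 in normal rats 11 and 12, 2.15 to 2.90 in normal rats 1 to 3, and 2.38 to 2.87 in ischemia rats. The sham rats were the highest of all groups, but their distance from normal rats 1 to 3 was small beside that from normal rats 11 and 12. Tmem252 had levels of 12.9 to 14.6 in sham rats, 4.15 to 9.37 in all normal rats and 3.97 to 7.98 in ischemia rats, a sham change of 1.69 ± 0.29 and a difference of -2.01 ± 0.39. Ccn2, connective tissue growth factor, differed by -2.05 ± 0.42, with 8.32 to 15.4 in sham rats and 9.62 to 13.8 in normal rats 1 to 3, and its direct value of -0.16 was not called. Shprh, a ubiquitin ligase, changed sign, from -1.13 to 0.19 directly, and its call was lost without normal rat 12 (adjusted p = 0.12). In 9 of the 20 genes normal rats 11 and 12 were called lower than normal rats 1 to 3, in none higher, against 3.48% and 2.6% of all genes. The 20 genes were chosen as higher in sham rats than in normal rats 11 and 12, so the choice favours this count. For the 9 genes the operation and the choice of normal rats cannot be told apart.

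The sham calls rested on few rats. The count of sham calls was 33 probes (0.352%), and it was 9, 17 and 14 without sham rat 1, 2 or 3, 11 without normal rat 12 and 54 without ischemia rat 3, which enters through the shared spread. Of the 23 genes, 5 were called without each sham rat and each of normal rats 11 and 12 in turn, namely Slc25a25, Cebpd, Per1, Klf10 and Fv1. The 3 genes that fell were Lama3, Inka1 and Zfp846. For Lama3, a laminin chain, normal rat 12 had a level of 5.04 and the other 10 rats lay between 0.493 and 1.00, and the sham change of -1.84 was -0.42 without it.

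**Figure D5:**
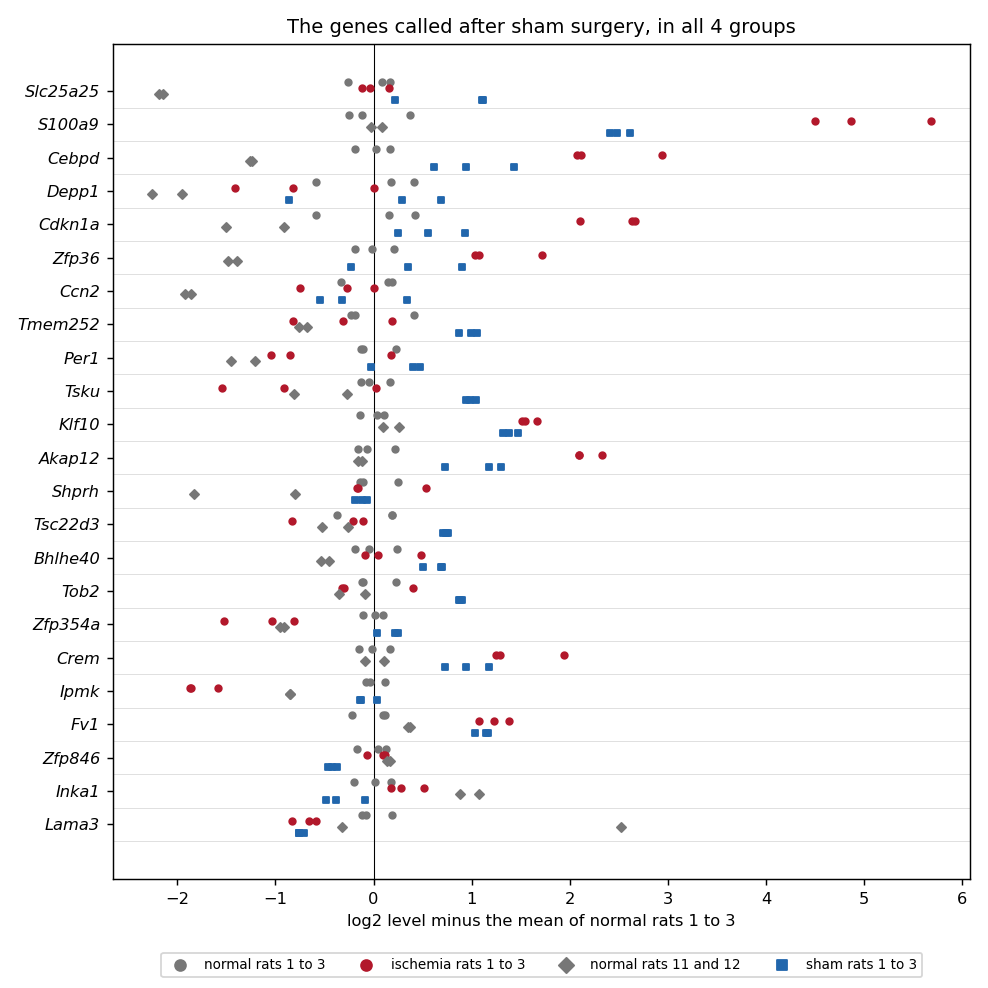
Log2 level of the 23 genes called after sham surgery in each rat, relative to the mean of normal rats 1 to 3, with 4 groups per gene. Grey diamonds (normal rats 11 and 12) lie left of the grey circles (normal rats 1 to 3) for Slc25a25, Cebpd, Depp1, Zfp36, Ccn2 and Per1, and the blue sham squares lie near or right of the circles.

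Glucocorticoid-responsive genes had the highest median sham change of the 28 lists. Of 15 tested, 7 were lower in ischemia than in sham and none higher, with a median difference of -0.96, made up of a median sham change of 0.78 and a median ischemia change of -0.39. Tsc22d3, the glucocorticoid-induced leucine zipper GILZ, had levels of 2.31, 2.39 and 2.36 in sham rats, 1.18 and 0.979 in normal rats 11 and 12, 1.09 to 1.61 in normal rats 1 to 3, and 0.792 to 1.31 in ischemia rats. The sham rats were above all others, and the difference was -1.52 ± 0.33 (adjusted p = 0.00129). Klf9 differed by -1.72 ± 0.34 and the sulfotransferase Sult1a1 by -2.38 ± 0.50. Glul, glutamine synthetase, fell in ischemia, with levels of 32.5, 25.5 and 4.15 against 46.8 to 61.4 in sham rats. Its difference of -2.07 ± 0.62 was no longer called without normal rat 12 (adjusted p = 0.0704). Fkbp5, a classical target, had levels of 2.38, 3.24 and 1.67 in sham rats and was not called. In these genes normal rats 11 and 12 had a median 0.40 below normal rats 1 to 3, and the direct comparison gave 2 higher, 7 lower and a median of -0.64.

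In the circadian clock list, 2 of 12 genes were higher and 3 lower, beside 13.2% and 11.1% of all genes. The direct comparison gave 2 higher and 5 lower, beside 25.9% and 21% of all genes. Per1, a clock gene that glucocorticoids also induce, had levels of 2.17, 1.53 and 2.06 in sham rats, 0.569 and 0.673 in normal rats 11 and 12, 1.43 to 1.83 in normal rats 1 to 3 and 0.756 to 1.76 in ischemia rats. The difference was -2.19 ± 0.34 and the direct value -0.85. Bhlhe40, a clock repressor, rose after sham surgery by 1.13 ± 0.20 and differed by -0.98 ± 0.27. Usp2, a clock-controlled deubiquitinase, had levels of 1.96 to 2.43 in sham rats and 0.849 to 1.48 in all other rats, a difference of -0.98 ± 0.22. Wee1, a cell cycle kinase under clock control, was higher by 0.87 ± 0.22. Bhlhe41 was higher by 1.02 ± 0.32, a call lost without normal rat 3, normal rat 12, ischemia rat 3 or sham rat 2 (adjusted p of up to 0.136). Dbp, a clock output gene whose level swings widely over the day, had levels of 11.6 to 13.9 in sham rats, 11.3 and 17.8 in normal rats 11 and 12, 4.07 to 4.96 in normal rats 1 to 3 and 3.93 to 6.12 in ischemia rats. Each operated group lay at the level of its own normal rats, so the difference was 0.25 ± 0.32, not called, while the direct value of -1.40 was called.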

How the data were processed

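Whole-kidney RNA was measured on CodeLink arrays with 9911 probes, of which 7229 carried 1 gene symbol in the platform annotation. The deposited values have no stated unit. Log2 of them gave a linear intensity scaled so that each array's median was near 1, with 0.5 standing for a missing value (0.97%). In log2 form, 100.0% of 347608 values were whole multiples of 0.0001 within 1e-06. Background correction and scanner software are not named in the labels used. Each array was divided by its median, floored at 0.1 and put on the log2 scale, and repeat arrays were averaged by rat. The values of sham rat 3 were moved by 2 rows. Probes entered the tests with 2 or more measured rats in each of the 4 groups compared here. They also needed values in at least 2/3 of all rats and 3 or more rats above the floor.

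limma 3.58.1 (R 4.3.3) fitted all 10 groups (31 rats, 21 residual degrees of freedom) with eBayes. The difference was the ischemia change minus the sham change, each from the normal rats read as its lot, with Benjamini-Hochberg adjustment over 9387 probes. All limma p-values are two-sided, and each adjusted p in the text comes from this fit or its alternatives. The comparison, the 28 gene lists and the tests were chosen with earlier results of these data known. Genes named were the 15 largest differences in each direction among called genes with all 6 rats measured and no overlap, the 10 largest sham changes in each direction, up to 6 members of each list by size, and defining markers. Sham genes beyond the first 10, and 36 list members outside the rule (among them Fos, Egr1, Myc, Hspa8, Hspd1, Hspe1, Dbp, Mt1, Gclc, Tnf and Spp1), were named after their values were seen. A few genes that the rule selects are not reported here. Alternatives were other floors, quantile normalization, no filter, the first array of each rat, unaveraged arrays, only the 4 groups, trend and robust settings, a replicate block, no lot term, sham rat 3 as deposited, and each rat left out. Removing ischemia rat 3 and normal rat 1 together was added after seeing the data.

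The replicate numbers did not pair the rats (correlations of deviations -0.588 to 0.481). Promoter windows came from RefSeq, assembly GRCr8.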

Additional observations from a re-analysis of the deposited data

Results flagged for a closer look

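Ipmk, Per1, Tsku and Zfp354a were called in opposite directions by the comparisons of ischemia and of sham surgery with their own normal rats. Ipmk, an inositol polyphosphate kinase, changed by -1.77 after ischemia and 0.77 after sham surgery, a difference of -2.55. Per1 changed by -0.57 and 1.62, a difference of -2.19. Its ischemia changes were -1.04, -0.85 and 0.17 in rats 1, 2 and 3 (limma adjusted p = 0.0427). Tsku, a secreted inhibitor of Wnt and growth factor signals, changed by -0.81 and 1.53, a difference of -2.34. Its ischemia changes were -1.55, -0.91 and 0.03 in rats 1, 2 and 3 (limma adjusted p = 0.0364). Zfp354a, a zinc finger protein of kidney, changed by -1.12 and 1.10, a difference of -2.22. In all 4, normal rats 11 and 12 lay below normal rats 1 to 3, by values of -0.85, -1.33, -0.54 and -0.93, called for Ipmk, Per1 and Zfp354a. The direct comparison of ischemia with sham kept the sign, at -1.69, -0.85, -1.80 and -1.29. The sham call of Per1 was kept without each sham rat and each of normal rats 11 and 12 in turn, and those of Ipmk, Tsku and Zfp354a were not. The part of the lot in these values was not tested.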

How the results depend on the processing

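The count of 2151 probes with a called difference stayed within 1.5 times under quantile normalization (2366), floors of 0.2 (2148) and 0.05 (2066), no filter (2174), unaveraged arrays (2192), the first array of each rat (1987), trend and robust settings (2148) and the replicate block (2122). It was 1115 with only the 4 groups, 4289 with no lot term and 499 with sham rat 3 as deposited, where the share of higher calls was 61.9% against 51.9%. Leaving out each rat in turn gave 1476 to 2877 for the difference, 3331 to 4303 for ischemia and 9 to 54 for sham. Without ischemia rat 3 and normal rat 1 together, an alternative added after seeing the data, the sham count was 56. With no lot term the sign turned for Zfp36 (0.94), Shprh (0.19), Dbp (-1.40) and Tnf (-0.53). With sham rat 3 as deposited it turned for Igfbp5 (1.08), Slco1a6 (1.63), Aqp1 (0.61), G6pc1 (0.22), Kmo (0.47), Kynu (0.08), Slc12a1 (0.02), A2m (-0.34), Mmp10 (-0.19), Uchl1 (-1.07), Mdh1 (1.04), Aifm1 (0.54), Bnip3l (1.29), Cubn (0.15), Gclc (2.50), Mt1 (2.19) and Vil1 (0.18), since the values then stand beside other probes' names. Of 161 named genes with a called difference, 133 kept call and sign without each rat in turn. With only the 4 groups in the fit, 129 of the 161 kept call and sign and 32 lost the call. The cause of the other shifts was not tested. Values near the floor of 0.1 understate changes.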
